A study of Mus musculus with 12 samples.

Results

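Epithelial cells are held together by adherens junctions, built on the cadherin encoded by Cdh1, and are sealed at their apical border by tight junctions, in which the MARVEL-domain proteins occludin (Ocln), tricellulin (Marveld2) and Marveld3 sit beside the claudins. Transcription factors such as Grhl2 and Elf3 and the splicing regulators Esrp1 and Esrp2 maintain this state, and repressors of the ZEB and SNAIL families, which bind E-boxes, oppose it. 10 genes of this programme, Cdh1, Epcam, Elf3, Rab25, Esrp1, Esrp2, Ocln, Grhl2, Marveld2 and Marveld3, were followed by symbol among 30803 Ensembl genes in the WT and GSH libraries and 17558 gene symbols in the Ctrl and Cas9 libraries. They were chosen by name as epithelial identity and junction genes, and were selected partly on the FPKM of Elf3 and Marveld3, which are higher in Cas9 libraries, so the Cas9 and Ctrl values below describe them and test nothing.

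All libraries are labelled as 4T1, a mammary carcinoma line from a BALB/c mouse, kept in culture in DMEM with fetal serum, with the genotype given as WT, GSH, Ctrl or Cas9. The labels expand neither GSH nor the target of Cas9, and give no time. They do not say whether replicates are separate cultures, and a p-value here reflects sample-to-sample spread that may be technical. Of the 12 samples, 10 were used, namely 3 each of WT, GSH and Cas9 and the single Ctrl library numbered 3, while Ctrl 1 and 2 were not analysed here. Recovered library totals ran from 18531444 to 30168737 reads for WT and GSH, and from 33152215 to 39201544 reads for Ctrl 3 and Cas9. Levels are FPKM, fragment numbers scaled to the length of the gene and the depth of the library.

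The epithelial keratins were abundant in every library, Krt8 at 343 to 463 FPKM and Krt18 at 458 to 556 FPKM in WT and GSH. In Ctrl and Cas9 libraries Krt8 stood at 589 to 885 FPKM and Krt18 at 672 to 896 FPKM. Those libraries also held transcripts of other cell types. The summed level of 23 leukocyte markers was 1353 FPKM in Ctrl and 1429 to 1495 FPKM in Cas9, against 43.6 to 49.1 FPKM in WT and GSH, and that of 10 fibroblast markers was 599 to 1868 FPKM against 11.2 to 38.2 FPKM. None of the genes of either list was at 0 in every library of a table. By gene, the leukocyte markers did not share the direction of their sum between Ctrl and Cas9. Of 18 with a mean of 1 FPKM or more, 5 lay above Ctrl 3 in all Cas9 libraries, 3 below and 10 on both sides. Their median log2 difference was -0.12. Over all genes, 20.1% lay above and 22.5% below. Ptprc was lower, at 21.1 FPKM in Ctrl 3 and 18.5, 21.03 and 15.9 FPKM in Cas9. Of 14 mammary luminal and secretory genes, Wap, a milk protein gene, was at 0 in every Ctrl and Cas9 library. In such mixed samples fewer carcinoma cells and less RNA per cell cannot be told apart. Among the WT and GSH libraries, a list of salivary, lacrimal and urinary secretory genes summed to 142 to 363 FPKM in WT 3, GSH 2 and GSH 3 and to 1.77 to 18.6 FPKM in WT 1, WT 2 and GSH 1.

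RefSeq promoter windows (build GRCm38.p6, 250 bases before to 50 after the start site) were found for 5 of the 10 genes: Epcam, Rab25, Elf3, Ocln and Marveld2. Cdh1, Esrp1, Esrp2, Grhl2 and Marveld3 had no entry. The window of Epcam is chr17:87635729-87636028 on the + strand, that of Rab25 is chr3:88548230-88548529 on the - strand and that of Elf3 is chr1:135258423-135258722 on the - strand. They are shown because Epcam was lower and Rab25 higher in GSH than in WT, whereas Elf3 was level there and higher in the Cas9 libraries. Capitals mark matches on either strand to the E-box CACCTG, the grainyhead motif AACNNGTT and the ETS motif CCGGAA, none of which overlapped another.
Epcam: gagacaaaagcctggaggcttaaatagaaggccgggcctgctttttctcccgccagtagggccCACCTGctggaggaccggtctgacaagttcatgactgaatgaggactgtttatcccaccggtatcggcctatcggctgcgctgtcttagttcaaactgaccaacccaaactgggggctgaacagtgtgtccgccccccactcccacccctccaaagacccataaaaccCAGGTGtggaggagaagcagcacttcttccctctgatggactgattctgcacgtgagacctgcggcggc
Rab25: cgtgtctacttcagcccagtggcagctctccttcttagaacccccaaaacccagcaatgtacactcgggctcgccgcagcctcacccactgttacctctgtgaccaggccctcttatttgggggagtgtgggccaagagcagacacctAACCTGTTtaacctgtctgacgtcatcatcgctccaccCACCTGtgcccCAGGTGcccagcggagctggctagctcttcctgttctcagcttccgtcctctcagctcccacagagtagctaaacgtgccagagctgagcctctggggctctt
Elf3: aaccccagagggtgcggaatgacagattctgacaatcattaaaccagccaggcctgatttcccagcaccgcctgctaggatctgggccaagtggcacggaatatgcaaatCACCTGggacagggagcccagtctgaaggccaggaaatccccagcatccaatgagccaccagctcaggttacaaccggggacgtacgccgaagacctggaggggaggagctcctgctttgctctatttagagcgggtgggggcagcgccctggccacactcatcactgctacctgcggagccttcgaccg
CACCTG was present in every window of the 5 genes, with 2 matches in Epcam, 2 in Rab25 and 1 in Elf3, and in 20.2% of all 32851 windows of this length. AACNNGTT was present in Rab25 alone among the 5 genes and in 4.2% of all windows. Ocln and Marveld2 each had more than 1 window, and these overlapped. CCGGAA, the core bound by ETS factors such as Elf3, had a match in each Marveld2 window and in 14.9% of all windows. In Ocln it had a match in the window chr13:100552669-100552968 and none in chr13:100552449-100552748. These are matches of letters, not measured binding sites.

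In WT cells the levels spanned from Epcam at 353 ± 9.81 FPKM and Cdh1 at 223 ± 6.04 FPKM (SD, n = 3), which exceeded at least 99.2% of the genes above 0 in each WT and GSH library, down to Grhl2 at 6.77 ± 0.352 FPKM. Esrp2, Rab25, Esrp1, Ocln, Marveld2, Elf3 and Marveld3 followed Cdh1 in that order, at 26.02, 23.3, 17.2, 15.01, 13.5, 8.78 and 8.44 FPKM, and no neighbours in the order overlapped between WT libraries. In GSH, Rab25 stood above Esrp2 and Grhl2 above Marveld3, and the last pair overlapped. The coefficient of variation between replicates had a median over the 10 genes of 3.13% in WT and 3.15% in GSH.

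All 10 genes passed the minimum mean of 1 FPKM in both tables. In limma's moderated test on log2(FPKM + 1), with Benjamini-Hochberg adjustment over all tested genes, 1 of them rose in GSH (Rab25), 4 fell (Epcam, Esrp2, Marveld3 and Cdh1) and 5 did not pass. Of all 12283 genes tested, 37.0% passed, 20.6% as higher and 16.4% as lower in GSH. The median log2 change was -0.10 for the 10 genes and 0.02 for all tested genes, and the median size of the change was 0.11 against 0.13. The 3 GSH libraries did not overlap the 3 WT libraries for 7 of the 10 genes and for 52.5% of all tested genes.

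**Figure D1:**
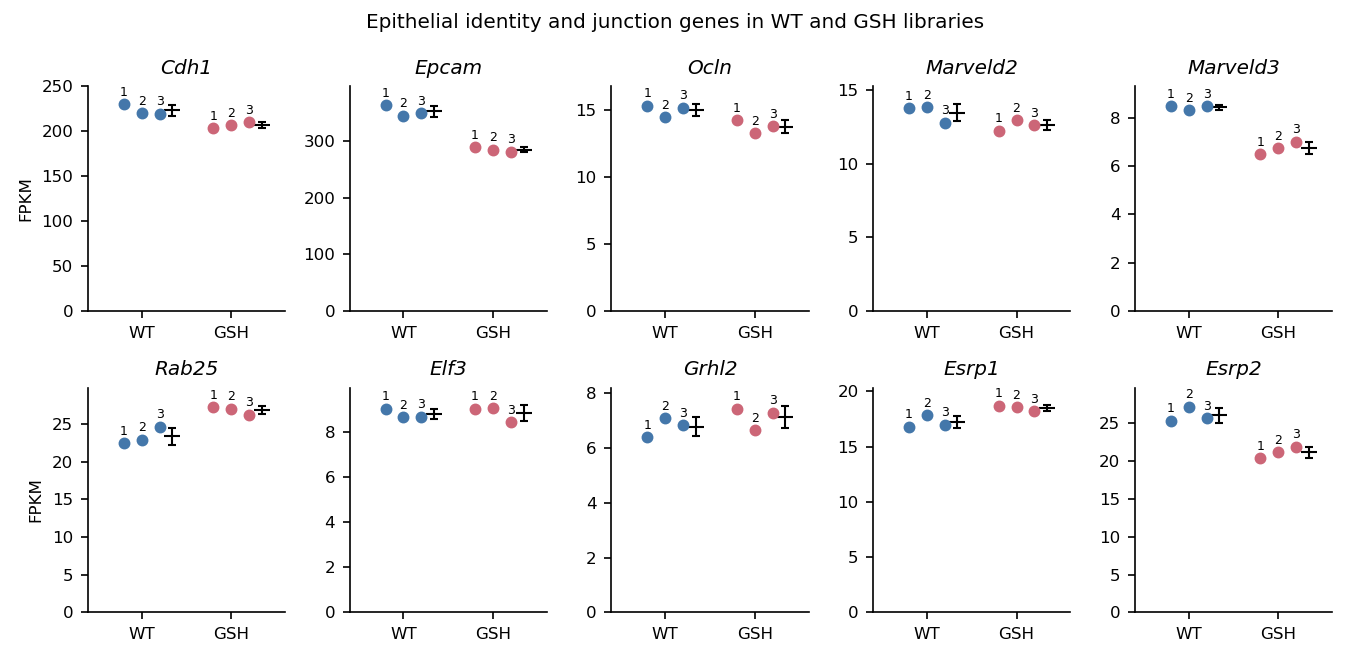
FPKM of each gene (y axes from 0) in the 3 WT (blue) and 3 GSH (red) libraries, numbered by replicate, with the mean and SD of each group as black bars. Epcam, Esrp2, Marveld3 and Cdh1 lie lower in every GSH library than in every WT library, Rab25 lies higher, and Elf3, Grhl2 and Marveld2 overlap.

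Cdh1 (ENSMUSG00000000303) encodes E-cadherin, the calcium-dependent adhesion receptor of adherens junctions. It stood at 230, 220 and 219.6 FPKM in WT 1 to 3 and at 203, 207 and 209.9 FPKM in GSH 1 to 3. Every GSH library was below every WT library, by a small margin. The log2 change was -0.11 (SE 0.03, limma adjusted p = 0.0318), or -7.4% on the FPKM + 1 scale. The call ended without WT 1 (limma adjusted p = 0.0973), WT 2 (0.0547), GSH 1 (0.0827), GSH 2 (0.0741) or GSH 3 (0.0703), with no filter (0.0947) and with a term for the libraries high in secretory genes (0.0615). Over all alternatives its adjusted p ran from 0.00672 to 0.311.

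Epcam (ENSMUSG00000045394), the epithelial cell adhesion molecule used as a carcinoma surface marker, was measured at 365, 346 and 350.3 FPKM in WT and at 290.2, 285 and 282 FPKM in GSH. The groups were well separated, with a log2 change of -0.31 (SE 0.03, limma adjusted p = 0.002), the furthest from 0 among the 10 genes. The change was -0.30 within WT 3, GSH 2 and GSH 3 and -0.29 within WT 1, WT 2 and GSH 1. Each of these splits leaves 1 library in one group, and no gene of the 10 passed in either (limma adjusted p = 0.0903 and 0.0847 for Epcam). Per read, 17569, 15407 and 16489 reads lay behind the WT values and 19219, 11838 and 11460 behind the GSH values, a counting error below 1% each.

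The 3 MARVEL-domain genes of tight junctions had log2 changes of the same sign and of unequal size. Marveld3 (ENSMUSG00000001672) was at 8.50, 8.33 and 8.49 FPKM in WT and at 6.51, 6.75 and 7.02 FPKM in GSH. All GSH libraries were below all WT libraries, and the gene fell by 0.28 on the log2 scale (SE 0.03, limma adjusted p = 0.00273). Within the libraries high in secretory genes the log2 change of Marveld3 was -0.27, and within the others -0.33. Ocln (ENSMUSG00000021638), whose product spans the membrane at the tight junction strand, was at 15.3, 14.5 and 15.2 FPKM in WT and at 14.3, 13.3 and 13.8 FPKM in GSH. Its libraries did not overlap, but the log2 change of -0.11 (SE 0.04) just missed the threshold (limma adjusted p = 0.0523). Ocln passed as lower under relative log expression scaling (limma adjusted p = 0.0299), with FPKM rescaled to the reads outside the mitochondrial genome (0.0245), with limma voom on recovered reads (0.0193) and without WT 2 (0.049). Marveld2 (ENSMUSG00000021636), the tricellulin of junctions where 3 cells meet, was at 13.8, 13.9 and 12.8 FPKM in WT and 12.3, 12.99 and 12.7 FPKM in GSH. WT 3 lay among the GSH libraries, and the log2 change of -0.09 (SE 0.04) did not pass (limma adjusted p = 0.135).

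Rab25 (ENSMUSG00000008601), a small GTPase of apical recycling endosomes found mainly in epithelia, was the gene of the set that rose. It stood at 22.5, 22.9 and 24.6 FPKM in WT and at 27.2, 26.99 and 26.2 FPKM in GSH. The groups did not overlap, and the log2 change was 0.19 (SE 0.04, limma adjusted p = 0.0117). It was 0.11 within the libraries high in secretory genes and 0.25 within the others.

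The transcription factors did not pass. Elf3 (ENSMUSG00000003051), an epithelium-specific ETS factor, was at 9.02, 8.64 and 8.66 FPKM in WT and at 9.02, 9.05 and 8.42 FPKM in GSH, with a log2 change of 0.0073 (SE 0.04, limma adjusted p = 0.894) whose sign changed with the scaling. Grhl2 (ENSMUSG00000022286), a grainyhead factor that activates junction genes, was at 6.39, 7.09 and 6.82 FPKM in WT and at 7.43, 6.66 and 7.29 FPKM in GSH (log2 change 0.06, SE 0.05, limma adjusted p = 0.373). The libraries of both genes overlapped between groups.

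The splicing paralogs Esrp1 and Esrp2, which promote epithelial exon choice in transcripts such as those of Fgfr2 and Cd44, had log2 changes of opposite sign. Esrp2 (ENSMUSG00000084128) was at 25.3, 27.2 and 25.6 FPKM in WT and at 20.3, 21.1 and 21.9 FPKM in GSH. It fell by 0.29 on the log2 scale without overlap (SE 0.04, limma adjusted p = 0.0037), with log2 changes of -0.24 and -0.35 within the libraries high and low in secretory genes. Esrp1 (ENSMUSG00000040728) was at 16.8, 17.8 and 17 FPKM in WT and at 18.7, 18.5 and 18.2 FPKM in GSH. All its GSH libraries were above all WT libraries, yet the log2 change of 0.10 (SE 0.03) missed the threshold (limma adjusted p = 0.0516), and passed without WT 2 (0.0354). Within each library, the ratio of Esrp1 to Esrp2 FPKM was 0.663, 0.656 and 0.663 in WT and 0.919, 0.877 and 0.831 in GSH. This ratio does not depend on the scaling of a library, and was singled out after its values were seen. The files give no splicing measure, so exon choice itself was not measured.

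**Figure D2:**
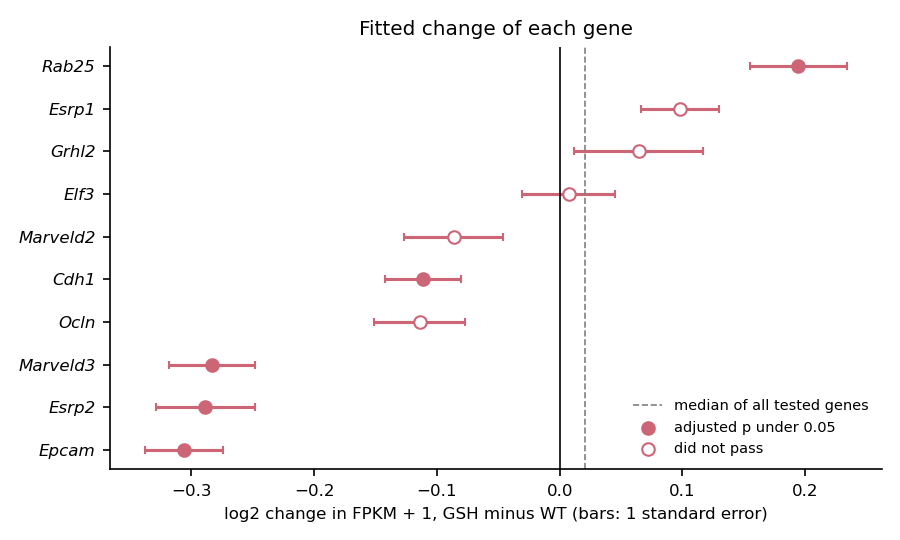
Fitted log2 change in FPKM + 1 of GSH minus WT for each gene (x axis; bars are 1 SE; filled points have an adjusted p under 0.05), with the median of all tested genes as a dashed line at 0.02. Epcam, Esrp2 and Marveld3 lie near -0.3, Cdh1 and Ocln near -0.11, and Rab25 at 0.19.

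The epithelial keratins, filament genes of simple epithelia, had log2 changes of the opposite sign to Cdh1 and Epcam. Krt8 rose by a log2 change of 0.32 (SE 0.04, limma adjusted p = 0.00369), Krt7 by 0.28 (SE 0.03, limma adjusted p = 0.0024), Krt19 by 0.22 (SE 0.06, limma adjusted p = 0.0257) and Krt18 by 0.18 (SE 0.05, limma adjusted p = 0.0306). The calls of Krt8 and Krt7 held without any 1 of the 6 libraries and under each scaling. That of Krt19 ended without WT 1 (0.0696), WT 2 (0.0656), GSH 2 (0.0742) or GSH 3 (0.0808) and with no filter (0.0746), and that of Krt18 ended without WT 1 (0.094), WT 2 (0.0843), GSH 1 (0.0551), GSH 2 (0.0872) or GSH 3 (0.0824), with no filter (0.129) and with FPKM rescaled to the reads outside the mitochondrial genome (0.0598). The summed level of 10 fibroblast markers was 11.2 to 22.8 FPKM in WT and 23.1 to 38.2 FPKM in GSH. That of 12 keratinocyte and skin markers was 45.8 to 57.0 FPKM in WT and 57.7 to 69.1 FPKM in GSH. None of these markers was at 0 in every library, and their part in the changes above was not tested.

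Other genes of epithelial junctions and identity were counted in 6 lists of 122 different genes, of which 93 were tested. Of these, 25 rose, 14 fell and 54 did not pass, with a median log2 change of 0.05, beside 20.6% higher, 16.4% lower and a median of 0.02 over all tested genes, against which each list below is also to be read. The split depended on the scaling: it was 20 higher and 17 lower under relative log expression scaling, and 16 higher and 20 lower with FPKM rescaled to the reads outside the mitochondrial genome, a genome that held 8.2 to 8.51% of WT reads and 5.75 to 6.12% of GSH reads. Without WT 1, WT 3, GSH 1 or GSH 3 and with no filter the number passing was 24 or 25. Calls over all tested genes also fell, from 4547 to 2998 without WT 1, 3496 without WT 2 and 3649 without WT 3. They fell to 3601, 3671 and 3140 without GSH 1, GSH 2 and GSH 3, and to 3086 of 30803 genes with no filter. Drops in calls within each list below are to be read beside these.

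Among tight junction genes, 20 of 29 were tested, 5 rose, 6 fell and 9 did not pass (median log2 change 0.02). The 11 calls became 6 without WT 1 or GSH 3 and with no filter, and 7 without WT 3 or GSH 2. Cxadr, an immunoglobulin-family receptor at tight junctions, fell from 27.02 ± 0.472 to 22.3 ± 0.88 FPKM (SD, n = 3 each; limma adjusted p = 0.0033). Lsr, the angulin that recruits tricellulin to tricellular junctions, rose from 36.4 ± 1.73 to 43.3 ± 3.31 FPKM (limma adjusted p = 0.023), a call that ended without WT 1 (0.0597), WT 3 (0.0639) or GSH 3 (0.0616), with no filter (0.0682) and with a term for the libraries high in secretory genes (0.0528). Of 12 tested adherens junction genes, 5 rose, 1 fell and 6 did not pass (median 0.09). Jup, the plakoglobin that links cadherins to the cytoskeleton, rose from 15.6 ± 0.832 to 20.2 ± 0.789 FPKM, and Vcl, the actin linker vinculin, rose from 16.6 ± 0.421 to 19.9 ± 1.15 FPKM.

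Of 10 tested desmosome genes, 3 rose, 1 fell and 6 did not pass (median 0.0012), but the split was 3 higher and 4 lower under relative log expression scaling and with voom, and 2 higher and 4 lower with FPKM rescaled to the reads outside the mitochondrial genome. In FPKM (mean ± SD of 3 libraries), Pkp1, a plakophilin of the desmosomal plaque, rose from 2.74 ± 0.198 to 3.59 ± 0.215, and Perp, a desmosomal membrane protein, fell from 182 ± 5.47 to 159.8 ± 1.39 FPKM. Among 17 tested epithelial polarity genes, 5 rose, 0 fell and 12 did not pass (median 0.08), whereas 1 gene passed as lower with FPKM rescaled to the reads outside the mitochondrial genome and 1 with voom. The 5 calls became 3 without WT 1, WT 3, GSH 1 or GSH 3 and with no filter. The scaffold gene Pard3 rose from 3.02 ± 0.11 to 3.92 ± 0.126 FPKM, and Myo5b, a motor that works with Rab11-family GTPases in apical recycling, rose from 1.98 ± 0.069 to 2.51 ± 0.13 FPKM.

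Of 13 tested epithelial transcription and splicing factor genes, 4 rose, 1 fell and 8 did not pass (median 0.10). The 5 calls became 2 without WT 2, WT 3 or GSH 1 and with no filter, and 3 without WT 1 or GSH 3 and with mitochondrial rescaling. Klf5, a Krüppel-like factor of epithelia, rose from 7.61 ± 0.42 to 8.69 ± 0.361 FPKM (SD, n = 3 each; limma adjusted p = 0.0327), and its call ended without WT 2 (0.0801), WT 3 (0.071), GSH 1 (0.092) or GSH 3 (0.0888), with no filter (0.0866), with FPKM rescaled to the reads outside the mitochondrial genome (0.0685) and with a term for the libraries high in secretory genes (0.0555). Of 21 tested surface and protease genes, 3 rose, 5 fell and 13 did not pass (median -0.04). The 8 calls became 4 without WT 1, WT 3 or GSH 1 and with no filter, and 5 without WT 2, GSH 2 or GSH 3, and the split was 1 higher and 7 lower with mitochondrial rescaling and 1 higher and 5 lower under relative log expression scaling. Lad1, an anchoring filament gene, rose from 54.9 ± 3.46 to 64.4 ± 0.662 FPKM, and Galnt3, which starts mucin-type glycans, fell from 40.8 ± 0.876 to 35.8 ± 0.895 FPKM.

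**Figure D3:**
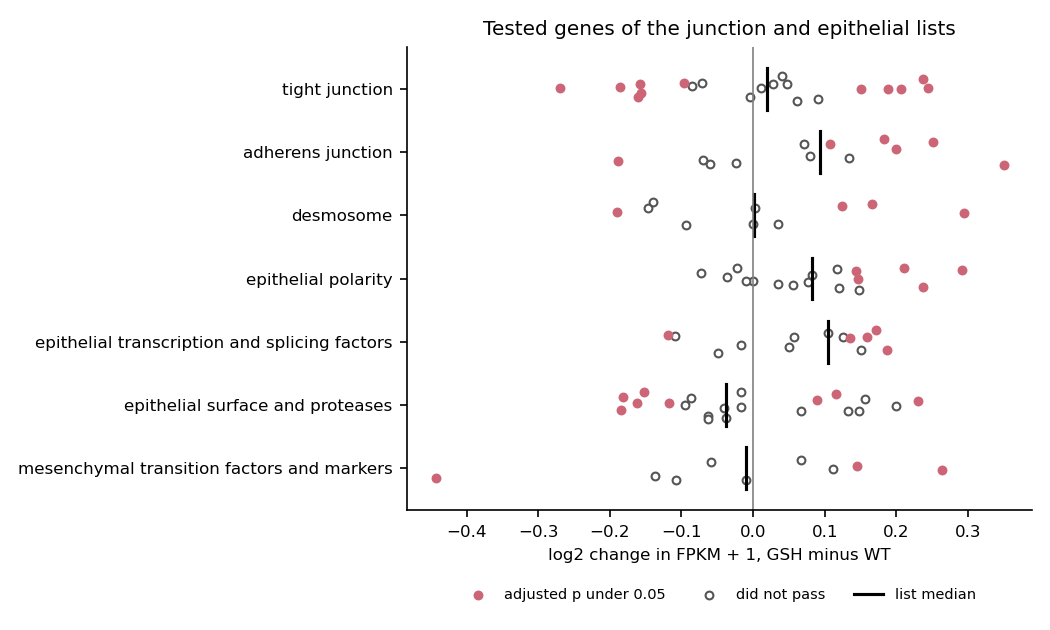
Log2 change in FPKM + 1 of GSH minus WT (x axis) for every tested gene of the 6 epithelial lists and of the mesenchymal list, with filled points for genes of an adjusted p under 0.05 and a black bar for each list's median. Genes that passed lie on both sides of 0 in each list except epithelial polarity, where 5 rose and 0 fell. In that list 1 passed as lower under mitochondrial rescaling and 1 with voom. The 1 lower call among transcription and splicing factors ended when any 1 library was left out. Of all tested genes 20.6% were higher and 16.4% lower.

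Of 9 tested genes of the opposing mesenchymal list, 2 rose, 1 fell and 6 did not pass (median -0.01). The intermediate filament gene Vim rose from 233 ± 7.46 to 280 ± 3.81 FPKM (SD, n = 3 each; limma adjusted p = 0.00281), and the calcium-binding S100a4 fell from 13 ± 0.638 to 9.36 ± 1.19 FPKM (limma adjusted p = 0.00925). Among the transcription factors that repress Cdh1, Zeb1 lay at 0.106 to 0.197 FPKM, Zeb2 at 0.717 to 0.959 FPKM and Snai2 at 0 to 0.134 FPKM, all below the filter. Snai1 lay at 6.76 to 7.93 FPKM (log2 change -0.11, SE 0.05, limma adjusted p = 0.134) and Twist1 at 8.75 to 10.4 FPKM (log2 change 0.07, SE 0.06, limma adjusted p = 0.435).

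Over the 6 WT and GSH libraries, the genes whose log2 level followed that of Cdh1 most closely were Glt8d1 (Pearson r = 0.994), Fam160a2 (r = 0.994) and Rnaseh2c (r = 0.99). Genes with no symbol, or with a Gm, Rik or pseudogene name, were left out of this ranking. Of all tested genes, 148 exceeded r = 0.95. The 6 libraries fall into 2 groups that differ in Cdh1, so the values describe these libraries and carry no test.

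In the Ctrl and Cas9 table, with 1 Ctrl library, the 10 genes are described without a test. All 3 Cas9 libraries lay above the Ctrl library for 7 of the 10 genes and below it for 0, whereas 20.1% of the 11407 genes with a mean of 1 FPKM or more lay above and 22.5% below. Nothing is read from that count, because this contrast helped to choose the genes. The median log2 difference was 0.46 for the 10 genes and -0.01 for all genes. In limma, 0 of the 11407 genes had an adjusted p under 0.05 and 210 an unadjusted p under 0.05 (1.84%), in a fit with 2 residual degrees of freedom.

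Elf3 and Marveld3, the genes that led to the choice, were both at about doubled levels. Elf3 stood at 7.33 FPKM in Ctrl 3 and at 14.1, 16.1 and 13.7 FPKM in Cas9 1 to 3, with 575 reads behind the Ctrl value and 947 to 1070 behind the others (mean ratio 2.00). Marveld3 stood at 2.87 FPKM in Ctrl 3 and at 5.31, 5.70 and 6.04 FPKM in Cas9 (mean ratio 1.98). For both genes the 3 Cas9 libraries lay close together and away from Ctrl 3. Rab25 was at 18.9 FPKM in Ctrl 3 and at 28.7, 31.0 and 36.4 FPKM in Cas9, Esrp2 at 4.85 against 7.51, 7.35 and 9.10 FPKM, and Ocln at 2.21 against 3.46, 3.598 and 4.51 FPKM, with mean ratios of 1.70, 1.65 and 1.75. Cas9 3 was the highest library for all 3 genes.

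Marveld2 and Grhl2 also lay above Ctrl 3 in every Cas9 library, by less. Marveld2 was at 3.82 FPKM in Ctrl 3 and at 4.38, 5.33 and 5.49 FPKM in Cas9 (mean ratio 1.32), and Grhl2 at 7.82 against 8.10, 8.36 and 10.2 FPKM (mean ratio 1.14). The difference of Grhl2 in Cas9 1 and Cas9 2 was at most 0.09 on the log2 scale.

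Cdh1, Epcam and Esrp1 overlapped, with Cas9 1 below Ctrl 3 each time. Cdh1 was at 62.4 FPKM in Ctrl 3 and at 51.8, 74.9 and 113 FPKM in Cas9. Epcam was at 189 FPKM against 181, 226 and 318 FPKM, and Esrp1 at 21.3 against 17.3, 32.2 and 32.8 FPKM. Without Cas9 3 the log2 difference of Cdh1 was -0.0023 in place of 0.28, and without Cas9 1 all 10 genes lay above Ctrl 3, as did 29.1% of all genes, with 35.2% below. Without Cas9 2 the count was 7 of 10, beside 28.9% of all genes above and 28.6% below, and without Cas9 3 it was 7 of 10, beside 29.2% above and 34.1% below.

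**Figure D4:**
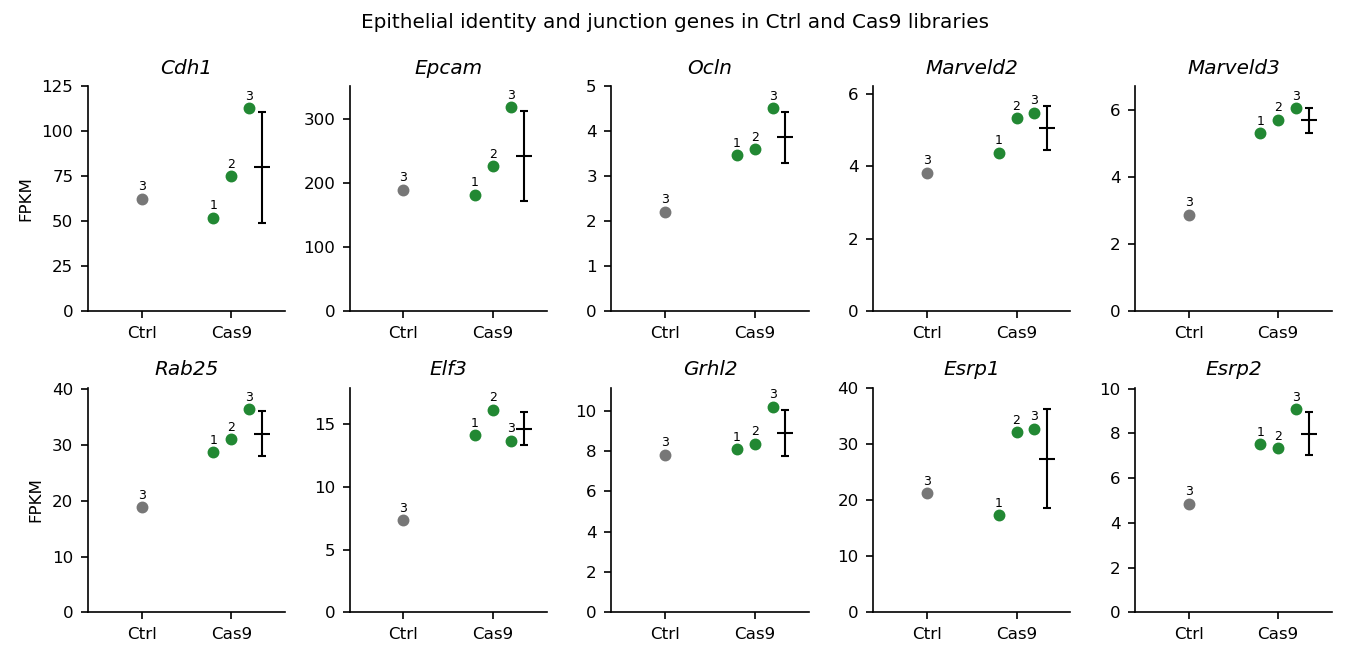
FPKM of each gene (y axes from 0) in the Ctrl library (grey) and the 3 Cas9 libraries (green), numbered by replicate, with the mean and SD of the Cas9 libraries as black bars. Elf3 and Marveld3 are about doubled in each Cas9 library, while Cdh1, Epcam and Esrp1 have Cas9 1 below Ctrl 3 and Cas9 2 and 3 above it.

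Levels of other cell types and of keratins differed between these libraries too. The summed level of 12 keratinocyte and skin markers was 117 FPKM in Ctrl 3 and 53.9, 100.5 and 585 FPKM in Cas9 1 to 3, so it was highest in Cas9 3, where Cdh1 and Epcam were highest. The 10 fibroblast markers summed to 1320 FPKM in Ctrl 3 and to 599, 1868 and 652 FPKM in Cas9, and 10 endothelial markers to 103 FPKM against 217, 94.1 and 141 FPKM. The 8 adipocyte markers summed to less in every Cas9 library, 112 FPKM in Ctrl 3 against 101, 84.7 and 70.4 FPKM. Of 6 of them with a mean of 1 FPKM or more, 1 lay above Ctrl 3 in all Cas9 libraries and 3 below. A list of 8 skeletal muscle markers summed to 7.23 FPKM against 29.1, 19.6 and 7.29 FPKM. No marker of these lists was at 0 in every library, and their part in the differences was not tested. Krt7 was lower in every Cas9 library, at 419.5 FPKM in Ctrl 3 and 214, 418.8 and 320.9 FPKM in Cas9 1 to 3. Krt8, Krt18 and Krt19 lay on both sides of Ctrl 3, with Krt19 at 48.96 against 33.75, 54.34 and 68.2 FPKM. Krt8 and Krt18 were lowest in Cas9 1. Relative to their summed FPKM, all 10 genes lay above Ctrl 3 in every Cas9 library, with a median log2 difference of 0.57. That scaling raised other genes as well: 28.4% of all genes then lay above and 2.85% below, and their median log2 difference was 0.11.

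Of 92 genes of the 6 epithelial lists with a mean of 1 FPKM or more in this table, 32 lay above Ctrl 3 in all Cas9 libraries, 14 below and 46 on both sides (median log2 difference 0.09), beside 20.1% above and 22.5% below over all genes. The largest differences without overlap were those of Mal2, an apical transport protein gene, at 1.40 FPKM in Ctrl 3 and 4.29, 2.87 and 5.65 FPKM in Cas9, and of Cldn5, at 6.74 against 23.5, 9.69 and 14.9 FPKM. Cldn5 is also one of the 10 endothelial markers. The nectin gene Nectin3 was lower, at 3.61 FPKM in Ctrl 3 and 2.16, 2.204 and 2.31 FPKM in Cas9, as was the junction scaffold gene Magi1, at 2.09 against 1.76, 1.55 and 1.57 FPKM. Of 12 mesenchymal genes, 1 lay above, 2 below and 9 on both sides. Zeb2, which leukocytes also express, was at 12.2 FPKM in Ctrl 3 and 10.2, 9.003 and 6.82 FPKM in Cas9. Twist1 went the other way, at 18.3 FPKM in Ctrl 3 and 22.5, 22.5 and 23.6 FPKM in Cas9. Snai1 lay on both sides, at 28.7 against 32.7, 25.5 and 24.6 FPKM. So did Zeb1, at 0.378 against 0.542, 0.442 and 0.354 FPKM, and Snai2, at 0.867 against 0.207, 0.683 and 0.924 FPKM.

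The 2 tables were normalised separately and divided by different gene lengths, such as 6305 bases for Esrp1 in WT and GSH and 3964 bases in Ctrl and Cas9, or 8613 and 5971 bases for Grhl2. Levels across them are given as RPM, recovered whole reads scaled to library depth, with no test. RPM avoids the division by unlike lengths, but not a difference in the bases over which reads were counted. RPM and read ratios can therefore still differ between tables through the annotation, and the size of that part was not tested. Elf3 was at 18.7 to 20.1 RPM in WT and GSH, 14.7 in Ctrl 3 and up to 32.3 in Cas9. Grhl2 lay at 55.1 to 64.0 against 46.7 to 60.9 RPM, and Esrp1 at 106 to 118 against 68.7 to 130, so both ranges overlapped between tables. Ocln lay at 56.2 to 64.8 RPM in WT and GSH and at 9.34 to 19.1 in Ctrl and Cas9, Esrp2 at 88.3 to 118 and 19.8 to 37.1, Marveld2 at 41.5 to 46.9 and 12.9 to 18.6, and Cdh1 at 930.2 to 1054 and 229 to 499. For these 4 genes, whose ranges did not overlap between tables, the Ctrl and Cas9 mean was 0.239, 0.287, 0.364 and 0.34 of the WT and GSH mean. Marveld3 did not overlap either, at 21.4 to 27.9 RPM in WT and GSH and 9.21 to 19.4 RPM in Ctrl and Cas9, whereas Epcam and Rab25 did. The share of all genes without overlap between tables was not counted, so nothing particular to these genes is read from it. The ratio of Esrp1 to Esrp2 reads was 0.954 to 0.964 in WT, 1.21 to 1.33 in GSH, 4.26 in Ctrl 3 and 2.25 to 4.26 in Cas9.

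**Figure D5:**
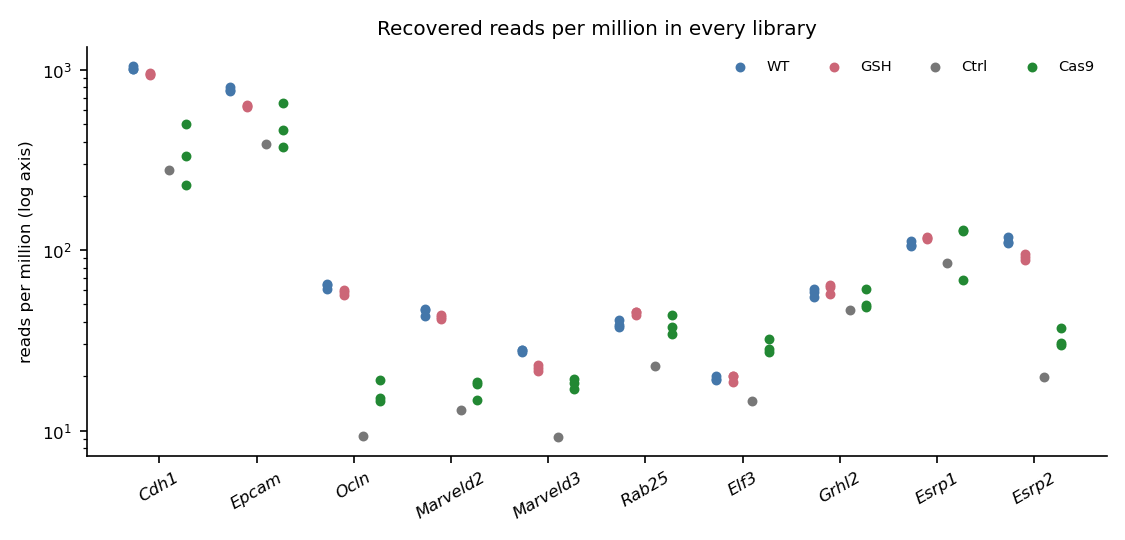
Recovered reads scaled to library depth, RPM (log axis) of each gene in every WT, GSH, Ctrl and Cas9 library. Cdh1, Ocln, Marveld2, Marveld3 and Esrp2 are lower in each Ctrl and Cas9 library than in any WT or GSH library, while the ranges of Grhl2 and Esrp1 overlap. The share of all genes lower in this way was not counted.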

How the data were processed

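Per the labels' protocols, RNA from cultured 4T1 cells was sequenced from NEBNext libraries. That label does not account for the leukocyte and fibroblast transcripts of the Ctrl and Cas9 libraries, and their source was not tested. Strand and read filters are not given in the sources used here. The submitters' processing notes list the build mm8 and, with no role, HTSeq 0.6.0, Bowtie2 2.2.3 and HISAT2 2. The unit of the deposited values is stated nowhere and was taken as FPKM from the values. The authors deposited WT and GSH libraries by Ensembl identifier, of which 30190 of 30803 matched a symbol, and Ctrl and Cas9 libraries by symbol. FPKM multiplied by merged GENCODE M21 exon length moved in whole reads for 98.5 to 98.7% of WT and GSH values under 500 reads (within 0.05 read). In Ctrl and Cas9 files 280 to 319 genes shared a library total, which gave whole reads for each of the 10 genes (within 0.005 read).

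Tests used limma 3.58.1 (R 4.3.3; lmFit, eBayes with trend, two-sided) on log2(FPKM + 1), group as the only term, over genes with a mean of 1 FPKM or more, at a Benjamini-Hochberg adjusted p of 0.05. Fold changes on that scale understate changes of low genes. Groups and replicate numbers came from the titles. The 10 genes, the lists and the tests were chosen with earlier results of these data known. Named list genes are the 2 of each list with the largest change among those that passed and, for Cas9, the 2 largest differences without overlap in each direction. A gene that this rule names is not reported here. The fit was checked on simulated data. Alternatives were another pseudocount, no filter, other scalings, a replicate block, leaving out each library, a term for libraries high in secretory genes (above 0.2 of the highest sum) and, chosen after seeing the data, a split by them and limma voom on recovered reads. The keratin alternatives were also added after seeing the data. The files hold FPKM, and count models were not run, although whole reads were recovered. Voom was the only fit made to the recovered reads.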

Additional observations from a re-analysis of the deposited data

How the results depend on the processing

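Of the 10 genes, 4 to 6 passed for GSH against WT when each library was left out in turn, and 4 to 6 under the other alternatives over all 6 libraries. Beside this, 4547 of all 12283 genes passed in the main fit, and 2998 to 3671 when each library was left out. Under the other alternatives it was from 3086 of 30803 with no filter to 5067 of 12165 with voom. Within the 3 libraries high in secretory genes, and within the other 3, 0 of the 10 genes and 0 of the 93 list genes passed in limma, in fits with 1 library in one group, whose spread is assumed to be that of the other group. All genes together gave 0 and 4 calls there, so these counts say little about stability. The number of list genes that passed was 24 with no filter and 24 to 32 when each library was left out. For Cas9 against Ctrl, 7 to 10 of the 10 genes and 33 to 46 list genes lay above Ctrl 3 when each Cas9 library was left out, and 45 list genes did so after scaling to Krt8 and Krt18, with 2 below. The list genes were 46 above and 20 below without Cas9 1, 38 and 20 without Cas9 2, and 33 and 27 without Cas9 3, where 29.1%, 28.9% and 29.2% of all genes lay above and 35.2%, 28.6% and 34.1% below. The sign of the log2 change of Elf3 turned under relative log expression scaling (-0.012), with FPKM rescaled to reads outside the mitochondrial genome (-0.027) and with voom (-0.011), and ran from -0.0090 to 0.0375 when each library was left out. That of Marveld2 was 0.0014 within the libraries high in secretory genes, and that of Cdh1 for Cas9 against Ctrl ran from -0.0023 to 0.55 when each Cas9 library was left out. The cause was not tested. Over all genes, 55.7% of called genes were higher in GSH, 48.7% under relative log expression scaling and 42.8% with FPKM rescaled to reads outside the mitochondrial genome.

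Same-numbered WT and GSH libraries had correlations of their deviations of 0.479, -0.107 and 0.209. GSH 1 and GSH 3 correlated best with the WT library of their own number, but GSH 2 correlated best with WT 3 (0.393). As this was mixed, the numbers were not taken as pairing in the main fit. With the replicate number as a block, 5 of the 10 genes and 32 list genes passed, against 5 and 39 without it, with Cdh1 lost (limma adjusted p = 0.0776) and Ocln gained (0.0411). Over all genes, 3867 passed with the block and 4547 without it. The call of Krt18 also ended with the block (0.0502). Both planned count models were not run. Depth limits counting error to between 0.6% for Cdh1 in GSH 1 and 5.38% for Elf3 in GSH 3.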
